A study of Mus musculus with 7 samples.

Results

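The 51 genes described here are mitotic G2/M genes, chosen by symbol from a list of genes of that phase, with earlier results of these data known. All 51 were found among the 32285 genes counted. They were followed in single LSK cells, which are lineage-negative bone marrow cells that carry the surface proteins Sca-1 and c-Kit and include the blood stem cells and early progenitors. The libraries labelled B4galt1 KO (3 libraries, genotype 129S1/C57Bl/6, B4-/-) and those labelled WT (4 libraries, genotype 129S1/C57Bl/6) share the mixed strain background, the tissue and the sort. The product of B4galt1 is a galactosyltransferase, which extends glycans on proteins with galactose. The labels give neither the deleted part of the gene nor the age of the mice, and they do not say whether libraries of 1 group came from separate animals. The p-values below therefore measure the spread between these libraries, which may be technical.

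A dividing cell copies its DNA in S phase, passes through the gap phase G2 and then separates its chromosomes in mitosis. Cyclin-dependent kinase 1 and its partners start mitosis, the chromosomal passenger and kinetochore proteins attach chromosomes to the spindle, and the anaphase-promoting complex marks cyclins and other proteins for destruction so that the cell can divide. Most transcripts of these proteins are made late in the cycle. Long-term blood stem cells are known to divide rarely, whereas the progenitors they give rise to divide often. Many promoters of late cell cycle genes carry 2 short elements, the CHR (cell cycle genes homology region, TTTGAA) and the CCAAT box. The 51 genes were ordered in 8 role groups, and a fixed list of 54 other mitotic genes and 43 S phase genes was measured beside them.

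The kept cells numbered 24430 in all, from 1172 to 8862 per library, with median depths of 8046 to 11084 UMIs (unique molecular identifiers, each standing for 1 counted transcript). Knockout replicate 3 and WT replicate 4 used another list of barcode sequences than the other 5 libraries, and ribosomal protein genes took 31.7% and 31.8% of their UMIs against 14.8% to 22.4% elsewhere. They are called list B below and the other 5 libraries list A. List B holds 1 library per label. Kept barcodes shared by 2 libraries numbered 68 for the list B pair and at most 2 for any other pair. B4galt1 itself stood at 53.2, 53.1 and 31.8 CPM (counts scaled to the same library total) in the knockout-labelled libraries and at 54.1, 60.8, 52.1 and 39.5 CPM in the WT-labelled ones, so its RNA does not separate the labels. A 3′ tag outside the deleted part checks nothing, and groups are named by their labels. The sort genes Kit (1.37 to 3.11 UMIs per 10000), Ly6a, which encodes Sca-1 (0.166 to 0.482), and Cd34 (2.11 to 4.03) were detected in every library.

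The promoters of the members share sequence that the choice of the list did not use. RefSeq promoters of build GRCm38.p6, from 250 bases before to 50 bases after the start, were matched by symbol for 45 of the 51 members. Cdc25c, Smc4, Tpx2, Aurkb, Dlgap5 and Cdca2 had no entry. The promoters below were picked mainly by how sharply a member marks dividing cells, a ratio given further on. Hmmr, Ckap2l and Cdca3 were among the highest in it of the members with both elements near the start. Cdca8 was too and is not printed. Hmgb2 was picked as the most abundant member, and Nuf2 as the highest in that ratio with neither element. TTTGAA and CCAAT on either strand (TTCAAA and ATTGG on the other) are in capitals. Hmmr and Ckap2l, which encode spindle proteins, and Cdca3, which encodes a ubiquitin ligase adaptor, hold both elements near the start. So does Hmgb2, a DNA-bending chromatin protein and the most abundant member. Nuf2, an outer kinetochore subunit, holds neither. Each is given 5′ to 3′ in the direction of its gene: Hmmr at chr11:40733388-40733687 (minus strand), Ckap2l at chr2:129297163-129297462 (minus strand), Cdca3 at chr6:124829926-124830225 (plus strand), Hmgb2 at chr8:57511593-57511892 (plus strand) and Nuf2 at chr1:169531415-169531714 (minus strand).
Hmmr: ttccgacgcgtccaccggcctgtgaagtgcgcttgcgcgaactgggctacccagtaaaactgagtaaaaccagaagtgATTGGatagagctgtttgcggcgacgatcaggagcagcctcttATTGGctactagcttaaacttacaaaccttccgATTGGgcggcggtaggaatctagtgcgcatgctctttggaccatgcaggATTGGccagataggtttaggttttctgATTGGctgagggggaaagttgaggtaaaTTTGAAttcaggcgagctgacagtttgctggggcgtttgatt
Ckap2l: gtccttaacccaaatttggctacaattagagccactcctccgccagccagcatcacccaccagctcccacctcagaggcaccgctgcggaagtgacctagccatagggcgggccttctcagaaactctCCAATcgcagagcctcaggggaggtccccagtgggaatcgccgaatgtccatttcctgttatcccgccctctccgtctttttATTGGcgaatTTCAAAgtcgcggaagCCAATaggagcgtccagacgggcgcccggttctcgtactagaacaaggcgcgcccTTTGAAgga
Cdca3: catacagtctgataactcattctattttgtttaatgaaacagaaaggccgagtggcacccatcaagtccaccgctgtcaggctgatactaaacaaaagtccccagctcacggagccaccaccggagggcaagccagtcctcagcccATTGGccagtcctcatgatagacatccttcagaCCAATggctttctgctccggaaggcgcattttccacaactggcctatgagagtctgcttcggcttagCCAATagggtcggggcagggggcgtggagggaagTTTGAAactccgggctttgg
Hmgb2: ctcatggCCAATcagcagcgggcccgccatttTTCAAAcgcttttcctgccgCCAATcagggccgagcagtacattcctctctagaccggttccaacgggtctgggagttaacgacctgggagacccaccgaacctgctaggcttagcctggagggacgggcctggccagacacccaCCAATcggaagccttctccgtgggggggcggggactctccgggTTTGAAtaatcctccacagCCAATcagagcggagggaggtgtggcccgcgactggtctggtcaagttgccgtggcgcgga
Nuf2: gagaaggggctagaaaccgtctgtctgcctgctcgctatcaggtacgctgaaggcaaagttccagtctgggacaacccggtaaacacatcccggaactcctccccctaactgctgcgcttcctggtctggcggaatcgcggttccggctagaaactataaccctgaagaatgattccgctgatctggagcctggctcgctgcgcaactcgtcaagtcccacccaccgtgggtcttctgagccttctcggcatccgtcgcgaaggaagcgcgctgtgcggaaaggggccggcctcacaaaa

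With 1 promoter per gene, TTTGAA stood in 71.1% of the members' windows (32 of 45). It stood in 12.5% of the windows of the 10950 genes that entered the tests over all cells and had an entry, and in 18.1% of those of all 27025 genes listed. In the last 100 bases, from 50 before to 50 after the start, it stood in 55.6% of members (25), against 3.06% of tested genes. CCAAT stood in 75.6% of the members' windows against 38.7% of tested genes, and in 62.2% against 15.2% in the last 100 bases. Both motifs together stood in the last 100 bases of 35.6% of members (16) and of 0.767% of tested genes. The members' windows and those of the tested genes had the same mean GC content, 60.3%. The 42 matches of TTTGAA had a median centre at -15.5 bases from the start, and the 94 matches of CCAAT at -64 bases. The 16 members with both motifs there were Hmmr, Ckap2l, Cdca8, Cdca3, Ccnb2, Kif11, Ttk, Cdc20, Aurka, Cdk1, Ect2, Kif23, Hmgb2, Cks1b, Ckap5 and Lbr. The 5 members with neither motif in the window were Nuf2, Nusap1, Birc5, Tacc3 and G2e3. In Cdca8, whose product belongs to the chromosomal passenger complex, 1 match of each motif overlapped. A match of letters is a description of the window and not a measured binding site.

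Summed over all libraries, the 51 members took 1691767 UMIs, and the 10 most abundant members held 57.2% of them. Hmgb2 held 22.5%, Cks2 (a small subunit that binds cyclin-dependent kinases) 5.78%, Tubb4b (a beta-tubulin) 5.12%, Top2a (topoisomerase II alpha, which untangles DNA) 4.92% and Smc4 (a condensin subunit) 4.19%. Together these 5 held 42.5%. By role, genes of chromosome structure held 35.8%, and 13.3% fell to genes of the nuclear envelope, chromatin and transport. Hmgb2 alone held between 18.6% and 23.9% of the members' UMIs in each library.

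How sharply a member marks dividing cells was measured by comparing its level in cells high for the other 50 members (at least 1% of UMIs) with its level in cells low for them (under 0.25%), as the ratio of the 2 means over 7 libraries. This ratio ran from 1.6 to 124. Kif2c, a kinesin that takes microtubules apart at the centromere, had the highest ratio of means, at 0.594 ± 0.039 UMIs per 10000 in high cells and 0.0048 ± 0.0032 in low cells (SD, n = 7). Its ratio of 124 rests on 64 UMIs in low cells, with 0 of them in knockout replicate 2 and 1 or 2 in each of WT replicates 1 to 3. Hmmr, which stabilises spindle poles, reached 114 and had the highest ratio by the median of the libraries (128, against 109.6 for Kif2c), and Ube2c, the ubiquitin-conjugating enzyme of the anaphase-promoting complex, 103. Ube2c stood at 4.8 ± 1.32 UMIs per 10000 in high cells and 0.046 ± 0.022 in low cells. At the other end Cbx5 (heterochromatin protein 1 alpha, ratio 1.6), Ctcf (an insulator protein that shapes chromatin loops, 1.62), Lbr (the lamin B receptor, 1.66), Tmpo (a lamina-associated protein, 2.46) and Anp32e (a chaperone of the histone H2A.Z, 2.68) had the lowest ratios. These 5 genes held 12.1% of the summed UMIs. Cbx5 stood at 2.33 ± 0.67 UMIs per 10000 in high cells and 1.45 ± 0.55 in low cells.

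In all, 35 of 51 members had a ratio of 10 or more, 11 lay from 3 to under 10 and 5 under 3. The passenger complex had the highest median ratio, 49.1, with Birc5 (survivin) at 69.7, Cdca8 at 49.1 and the kinase gene Aurkb at 43.4. The 4 genes of ubiquitin steps had a median of 36.0 and ranged from G2e3, a ubiquitin ligase, at 4.01 to Ube2c. The 9 kinase, cyclin and partner genes had a median of 26.6, from Cks1b at 5.85 to Cdc25c, the phosphatase that activates Cdk1, at 85. The ratio of Cdc25c rests on 65 UMIs in low cells, with 0 of them in WT replicates 1 and 2. Of the 51 members, 16 had under 10 UMIs in the low cells of a library, so high ratios are uncertain. The 14 spindle and motor genes had a median of 23.3, and the 6 kinetochore genes 18.7. Among the kinetochore genes Nuf2 (73.5) stood far above Hjurp (3.46), the chaperone of the centromere histone. The 3 cytokinesis genes had a median of 14.4, the 6 genes of chromosome structure 9.07 and the 6 of the nuclear envelope, chromatin and transport 2.06. Hmgb2 had a ratio of 7.38, with 31.8 ± 3.91 UMIs per 10000 in high cells and 4.31 ± 0.57 in low cells. Leaving out this most abundant member lowers the sum most while the limits stay the same. Its high cells are therefore a narrower set, and its low cells a broader one, than those of other members. Members with TTTGAA in the last 100 promoter bases had a median ratio of 21.3 (25 genes) and those without 11 (20 genes), and both sets spanned nearly the whole range. Nuf2, Nusap1 and Birc5, whose windows held neither motif, were among the 9 members with the highest ratios.

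**Figure D1:**
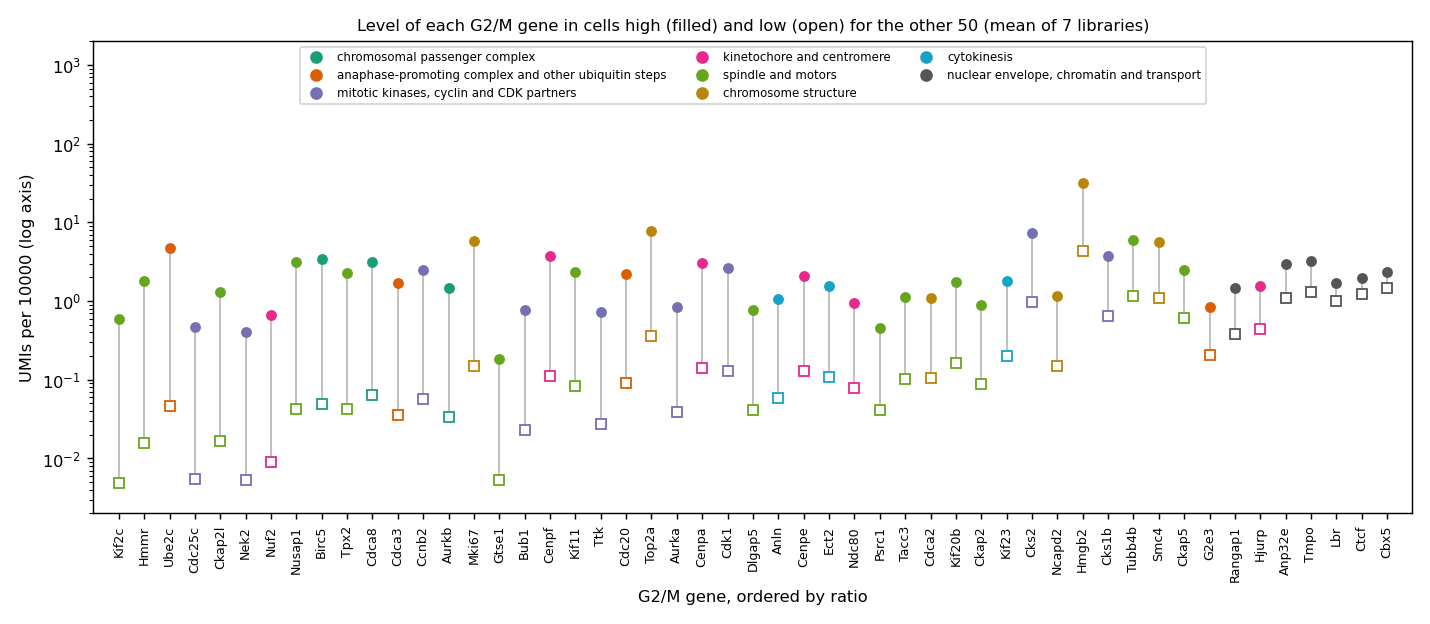
Level of each of the 51 members in cells high (filled circles) and low (open squares) for the other 50 members, coloured by role and ordered by ratio (UMIs per 10000, log axis; means over 7 libraries). The distance between the points of a gene is its ratio on the log axis, from 124 for Kif2c to 1.6 for Cbx5.

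Cells were then sorted into states by 11 marker gates applied in a fixed order. A cell took the first gate it passed, and an average of 56.3% of the cells of a library (51.7% to 61.1%) passed 2 gates or more. No member is a gate marker. Cells that passed the granule gate (Elane, Prtn3, Ctsg, Ms4a3 and Mpo, proteins of neutrophil granules and their precursors) or the monocyte gate (Csf1r, F13a1, Ccr2, Ms4a6c and Ly86) are called GM-marked. They numbered 7635, and 16795 cells lay outside. The gate markers separated the states only in part. The granule markers summed to 74.1 UMIs per 10000 in granule-gated cells, 4.04 in stem-gated cells and 4.53 in lymphoid-gated cells. In gates counted outside GM-marked cells they summed to 254 (secondary granule), 34.7 (basophil and mast) and 30.8 (T and NK). The lymphoid markers summed to 11.15 in monocyte-gated cells, which are GM-marked, and to 13.87 in lymphoid-gated cells.

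The summed G2/M share of UMIs differed between states inside each library. Granule-gated cells held 0.753 ± 0.090% (SD, n = 7), lymphoid-gated cells (Dntt, Rag1, Rag2, Il7r, Blnk and Ebf1) 0.670 ± 0.079%, Flt3-gated cells 0.502 ± 0.060% and stem-gated cells (Hlf, Mecom, Procr and others) 0.487 ± 0.053%. Granule-gated cells lay above stem-gated cells in 7 of 7 libraries, by 0.266 ± 0.078 percentage points, and lymphoid-gated cells did so in 7 of 7, by 0.183 ± 0.051 points. Granule-gated cells lay above lymphoid-gated cells in 6 of 7. Flt3-gated and stem-gated cells, the lowest of these 4 states, did not differ beyond their spread (0.015 ± 0.069 points). Rarer states reached 20 cells in few libraries. Secondary granule cells held 0.956% on average in 3 libraries, erythroid-gated cells 0.845% in 2, basophil and mast-gated cells 0.784% in 2 and megakaryocyte-gated cells 0.649% in 2. Monocyte-gated cells held 0.760% in 4 libraries. Close to the Flt3-gated cells lay T and NK-gated cells (0.503% in 2 libraries), MHC II-gated cells (0.545% in 2) and cells that passed no gate (0.536% in 6). No test was made of a summed share.

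**Figure D2:**
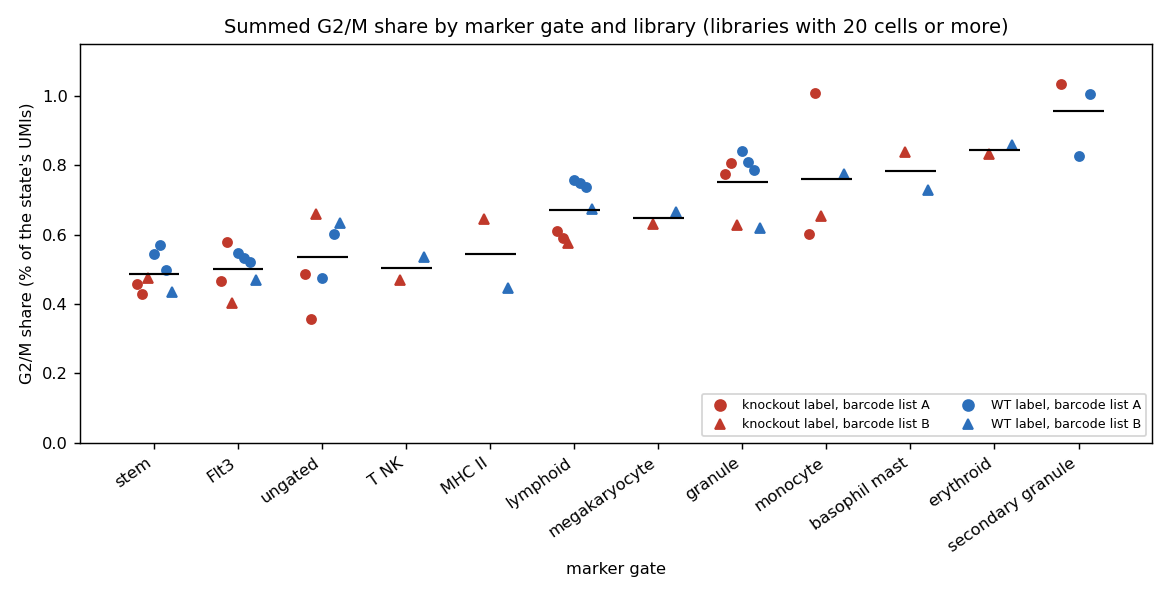
Summed G2/M share of UMIs (percent) in each marker-gated state, with 1 point per library of at least 20 cells and a bar at the mean. With cells of all depths together, granule-gated cells lie above stem-gated cells in every library, and Flt3-gated and stem-gated cells overlap. The states also differ in UMIs per cell.

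Single members followed the same order to different degrees. Ube2c stood at 1.86 ± 0.17 UMIs per 10000 in granule-gated cells, 1.56 ± 0.47 in lymphoid-gated cells and 0.720 ± 0.338 in stem-gated cells. Cks2 stood at 3.95 ± 0.53, 2.89 ± 0.66 and 1.98 ± 0.61 in the same states, and Hmgb2 at 16.2 ± 1.28, 14.4 ± 1.33 and 10.0 ± 0.67. Cells of at least 3000 UMIs were also thinned to 3000 UMIs each, which left out the 45 to 169 cells of a library with fewer. The share of thinned cells in which the members took at least 1% of the UMIs was 24.5 ± 5.56% among GM-marked cells and 13.8 ± 2.49% outside them. Unthinned values, over all kept cells, were 24.3% and 13%. Cells at 1% or more held between 52.5% and 62.5% of all G2/M UMIs of a library. Between 2.80% and 9.22% of the cells of a library lay between 0.9% and 1.1%, close to that limit.

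All 51 members had an estimate above 0 in GM-marked cells when all kept cells were summed, and 16 of 51 did among cells of 8000 to 16000 UMIs. Summed counts of GM-marked cells and of the other cells of the same library were compared gene by gene with edgeR, with the library as a block. Of the 51 members, 49 were called higher in GM-marked cells and 0 lower, against 28.8% of all 13571 genes called higher and 27.7% called lower. The members' median log2 fold change was 0.54 and that of all genes -0.02. Cbx5 (0.12, edgeR adjusted p 0.052) and G2e3 (0.13, adjusted p 0.085) were not called. Within libraries all 51 members were higher in 6 libraries and 50 in WT replicate 4, where Hjurp had a log2 ratio of -0.02. Of the other 54 mitotic genes 53 were called higher (median 0.57), as were 38 of the 43 S phase genes (median 0.35). The G2/M share exceeded that outside by 0.192 ± 0.081 points (0.097 to 0.335), and the S phase share by 0.058 ± 0.011 points.

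Cks2 had the smallest p among the members. It stood at 435, 373 and 582 CPM in GM-marked cells of the knockout-labelled libraries and at 391, 294, 335 and 502 in those of the WT-labelled ones. Outside, it stood at 221, 169 and 397 CPM and at 203, 177, 176 and 363. Cks2 was higher in GM-marked cells in every library, by 0.82 on the log2 scale (SE 0.081, edgeR adjusted p 8.2e-06), although its level in GM-marked cells of WT replicate 2 lay below that of the other cells of both list B libraries. Cks1b, the second Cdk-binding subunit of this kind, stood at 265, 206, 387, 275, 195, 220 and 353 CPM in GM-marked cells and at 130, 88.5, 275, 155, 120, 121 and 246 outside, in the order knockout replicates 1 to 3 and WT replicates 1 to 4 (0.80, SE 0.083, edgeR adjusted p 1.1e-05). Cdca3, which helps to destroy the mitosis inhibitor Wee1, stood at 85.3, 68.5, 113, 81.1, 66.4, 71.4 and 102 CPM against 45.7, 33.9, 79.0, 38.6, 38.2, 37.9 and 76.7 in that order (0.78, SE 0.081, edgeR adjusted p 1.1e-05). All 3 genes were higher in GM-marked cells in 7 of 7 libraries.

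By role, the passenger complex (median log2 fold change 0.82, 3 of 3 called) and the ubiquitin steps (0.82, 3 of 4) rose most, led by Ube2c (0.96, SE 0.15), Aurkb (0.92, SE 0.10) and Cdc20, the activator of the anaphase-promoting complex (0.86, SE 0.11). All 9 kinase, cyclin and partner genes were called, with a median of 0.68, and Cdk1 itself rose by 0.80 (SE 0.084). The 6 kinetochore genes (median 0.55), the 14 spindle genes (0.54), the 6 chromosome structure genes (0.48) and the 3 cytokinesis genes (0.47) were called as well. In the group of the nuclear envelope, chromatin and transport, 5 of 6 were called, with a median of 0.32. In the list of other mitotic genes the smallest p belonged to Mad2l1, the spindle checkpoint protein (0.60, SE 0.060), Incenp, the scaffold of the passenger complex (0.68, SE 0.070), and Cenph, a centromere protein (0.51, SE 0.055).

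**Figure D3:**
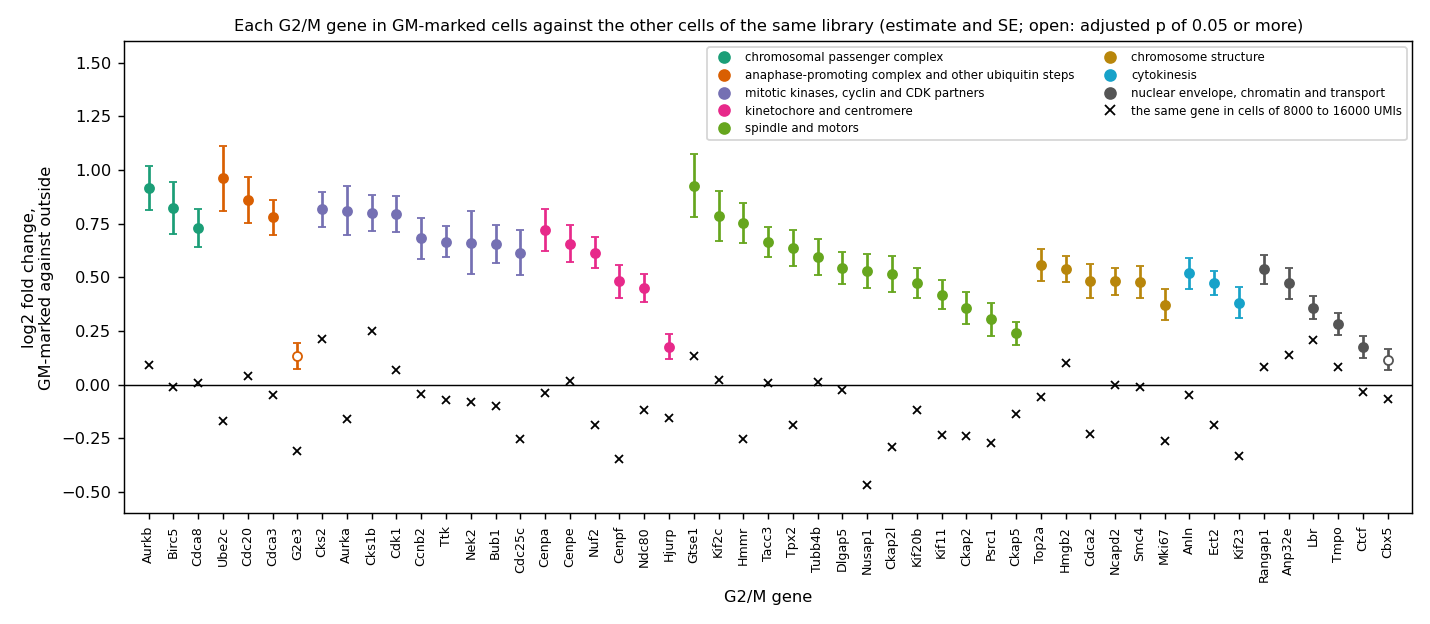
Log2 fold change of each of the 51 members between GM-marked cells and the other cells of the same library (edgeR with a library block), as coloured points with SE for all kept cells (open: adjusted p of 0.05 or more) and as crosses for cells of 8000 to 16000 UMIs. All 51 points lie above 0, and 35 of 51 crosses lie below it.

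The number of UMIs per cell moved with this contrast. GM-marked cells had medians of 11089 to 17212 UMIs in the 7 libraries and the other cells 5275 to 9853, with no library in which the others had more. The G2/M share rose with the UMIs of a cell in all kept cells together, from 0.240% on average under 4000 UMIs through 0.274%, 0.427%, 0.697% and 0.912% in the bands that start at 4000, 8000, 12000 and 16000 to 1.01% at 24000 or more. As background, a cell that has copied its DNA is known to hold more RNA than before, so that a choice of cells by UMIs can also be a choice by phase. Inside the bands, the difference between GM-marked and other cells was 0.073 ± 0.064 points from 4000 to under 8000 UMIs (higher in 6 of 7 libraries). It was 0.018 ± 0.080 points from 8000 to under 12000 (4 of 7) and -0.134 ± 0.109 points from 12000 to under 16000 (1 of 7).

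In cells of 8000 to 16000 UMIs, a window chosen after the data had been seen, GM-marked cells held 0.549 ± 0.110% and the other cells 0.561 ± 0.102% (SD, n = 7). The difference was -0.013 ± 0.086 points, positive in 3 libraries and negative in 4. In the edgeR fit of this window, 1 member was called higher and 7 lower, against 17.3% of 12033 genes called higher and 14.6% called lower, and the members' median was -0.06. Lbr was the member called higher (0.21, SE 0.057, edgeR adjusted p 0.0060). Nusap1, a spindle microtubule bundling protein (-0.47, SE 0.10, edgeR adjusted p 0.0033), Kif23, the kinesin of the central spindle (-0.33), Cenpf, a kinetochore protein (-0.35), G2e3 (-0.31), Mki67, the Ki-67 antigen that coats mitotic chromosomes (-0.26), Psrc1 (-0.27) and Ckap2 (-0.24), both microtubule-associated, were called lower. Cks2 (0.21, edgeR adjusted p 0.050), Cks1b (0.25, adjusted p 0.073) and Cdca3 (-0.05, adjusted p 0.848) were not called. Of the 43 S phase genes 19 were still called higher and 0 lower, with a median of 0.19. Of the other 54 mitotic genes 2 were called higher and 6 lower.

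**Figure D4:**
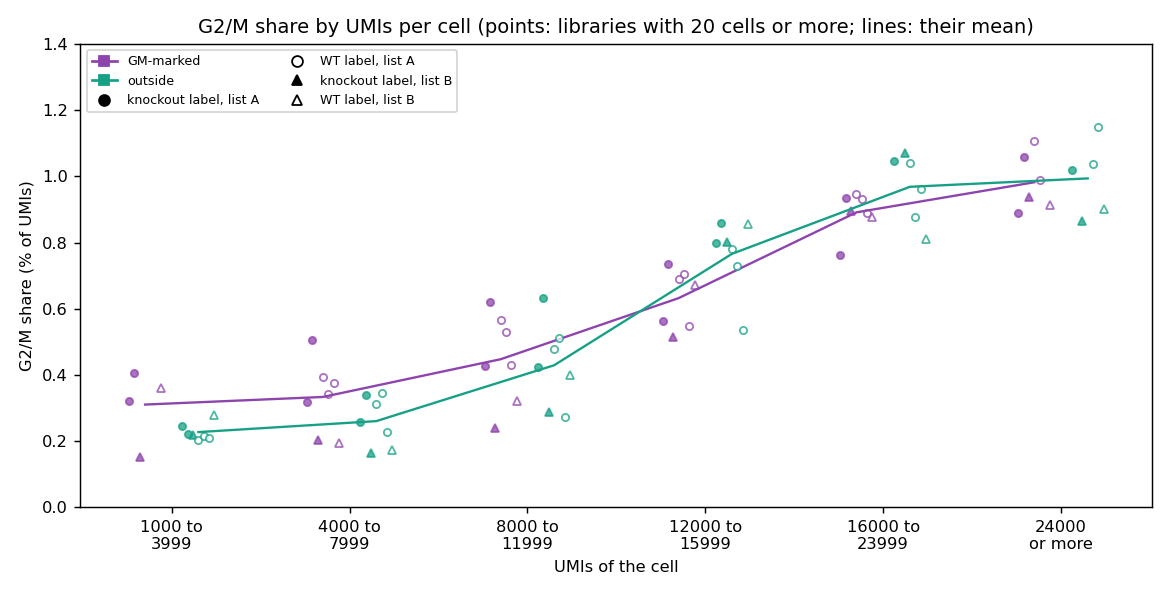
Summed G2/M share of UMIs (percent) against the UMIs per cell, in bands, for GM-marked cells and the other cells (points are libraries, lines the means). The share rises with UMIs in both kinds of cells, and from 12000 to under 16000 UMIs the GM-marked cells lie below the others in 6 of 7 libraries.

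The stem-gated and Flt3-gated states, the 2 lowest of those with at least 20 cells in every library, were compared in the same way. Of the 51 members, Tubb4b was called higher in stem-gated than in Flt3-gated cells (log2 fold change 0.24, edgeR adjusted p 0.024), and Hmgb2 (-0.21, adjusted p 0.0090) and Cks1b (-0.24, adjusted p 0.037) lower. All genes tested were called higher in 8.06% and lower in 7.32% of cases. In the order knockout replicates 1 to 3 and WT replicates 1 to 4, Tubb4b stood at 183, 154, 358, 254, 182, 204 and 314 CPM in stem-gated cells and at 132, 109, 265, 236, 160, 181 and 305 in Flt3-gated cells, higher in 7 of 7 libraries. Cks1b stood at 93.7, 81.1, 251, 141, 106, 106 and 212 CPM against 128, 90.02, 263, 152, 119, 150 and 257, lower in 7 of 7. Hmgb2 stood at 933, 829, 1201, 1006, 915, 946 and 1178 CPM against 1103, 1209, 1106, 1227, 866, 1257 and 1397, lower in 5 of 7 and higher in knockout replicate 3 and WT replicate 2. DESeq2 called 0 of the 51. With the gate thresholds halved, edgeR called 17 of the 49 members tested higher in stem-gated cells, as it did 3.44% of all genes. With them doubled it called 43 of 51 lower, as it did 20.7% of all genes, so the direction turned with the thresholds.

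The labels were compared next. Over all kept cells, the G2/M share was 0.721%, 0.720% and 0.576% in the knockout-labelled libraries and 0.689%, 0.690%, 0.605% and 0.547% in the WT-labelled ones. The groups overlapped, with means of 0.672 ± 0.083% (SD, n = 3) and 0.633 ± 0.070% (SD, n = 4). The difference was 0.040 points, 0.059 within list A and 0.030 within list B, and it ran from 0.011 (without WT replicate 4) to 0.088 (without knockout replicate 3) with 1 library left out. GM-marked cells made up 56.3%, 53.9% and 40.3% of the knockout-labelled cells and 20.2%, 18%, 11.9% and 17.8% of the WT-labelled ones. They held 71.1 ± 15.8% of the G2/M UMIs of a knockout-labelled library and 28.5 ± 7.62% of those of a WT-labelled one. Within GM-marked cells the share was 0.771%, 0.813% and 0.630% against 0.853%, 0.825%, 0.775% and 0.623%. Outside them it was 0.580%, 0.478% and 0.527% against 0.618%, 0.642%, 0.574% and 0.525%. In both places the groups overlapped and the knockout-labelled mean was lower, by 0.031 and 0.062 points. The direction turned in list B, where the differences were 0.0070 and 0.0014 points, and that in GM-marked cells was 0.023 points without knockout replicate 3. With the 4 states of at least 20 cells in every library weighted alike, the means were 0.566 ± 0.042% and 0.631 ± 0.057%. The share of thinned cells at 1% or more was 18.2 ± 2.76% under the knockout label and 16.7 ± 3.43% under WT (17.5% and 16.1% without thinning). That difference of 1.46 points ran from 0.205 (without WT replicate 4) to 2.97 (without knockout replicate 3).

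Gene by gene over all kept cells, edgeR called 0 of the 51 members and 0% of all 14608 genes, with 1 member at an unadjusted p below 0.05 and 0 called by DESeq2. The estimate was above 0 for 40 members and below 0 for 11, with a median log2 difference of 0.20 against 0.02 for all genes. For 6 members every knockout-labelled library lay above every WT-labelled one: Kif2c, Aurkb, Tacc3, Cdca8, Nek2 and Nuf2. Of all genes, 2.68% did so. Kif2c stood at 24.4, 28.1 and 21.5 CPM against 18.7, 20.4, 14.9 and 17.4 (log2 difference 0.47, SE 0.20, edgeR adjusted p 1.00). Aurkb stood at 86.5, 73.2 and 70.9 CPM against 65.1, 49.7, 45.2 and 59.8 (0.48, SE 0.21). Tacc3, a spindle protein that Aurora A recruits, stood at 61.1, 61.1 and 64.9 CPM against 45.8, 41.9, 38.0 and 59.6 (0.43, SE 0.21). In these 3 genes the groups were apart, yet WT replicate 4 came close to the lowest knockout-labelled library for Tacc3. Of the other mitotic genes Plk1, a kinase of mitotic entry, had the smallest p, at 35.3, 35.7 and 32.3 CPM against 21.3, 24.2, 18.5 and 23.9 (0.65, SE 0.18, edgeR adjusted p 0.717). Plk1 was called in list A alone (0.71, edgeR adjusted p 0.047). It was also called when the edgeR model held a term for the list (0.64, adjusted p 0.049). Cenpw, a centromere protein, was not called in all 7 libraries (0.69, edgeR adjusted p 1.00) and was called in list A alone (0.88, adjusted p 0.046). The shares of all genes called in list A alone and with the list term are not given here. The calls of Plk1 and Cenpw in those fits therefore have no background to be read against.

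The member of each role with the most UMIs, summed over all kept cells, is given here in every library. The list B libraries held 79984599 and 89268502 kept UMIs, against 12681440 to 46792519 elsewhere. The choice by summed UMIs therefore favours genes that are high in list B. In the order knockout replicates 1 to 3 and WT replicates 1 to 4, Hmgb2 stood at 1692, 1436, 1521, 1355, 1127, 1195 and 1477 CPM and Cks2 at 375, 319, 486, 261, 204, 197 and 397 CPM. Cks2 was highest in the list B library under each label. Birc5 (160, 127, 185, 131, 84.2, 87.3 and 172 CPM), Ube2c (168, 149, 207, 121, 113, 95.1 and 168 CPM) and Cenpa, the centromere histone (112, 91.0, 149, 80.6, 73.4, 69.9 and 137 CPM), were likewise highest there under each label. So were Tubb4b (340, 252, 401, 295, 210, 228 and 353 CPM) and Anp32e (226, 186, 231, 170, 149, 151 and 209 CPM). Kif23 was lowest in list B under each label, at 60.6, 85.5, 58.4, 80.6, 80.2, 72.0 and 67.6 CPM. Tmpo and Cbx5, of the same role as Anp32e, were not chosen by summed UMIs and were also lowest there. Tmpo stood at 236, 252.5, 93.1, 288, 259, 268 and 101 CPM and Cbx5 at 224, 241, 117, 263, 242, 226 and 127 CPM. Their mean CPM over the libraries, 214 and 206, lay above the 189 of Anp32e.

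Within GM-marked cells edgeR called 0 of the 51 members and 0% of 13502 genes (0 members at an unadjusted p below 0.05, 0 by DESeq2). The estimates split into 26 above and 25 below 0. Ndc80, the kinetochore subunit that binds microtubules, and Dlgap5, a spindle protein, were lower in every knockout-labelled library, as were 1.46% of all genes. Ndc80 stood at 43.7, 46.8 and 46.7 CPM against 57.5, 53.2, 50.3 and 53.5 (-0.23, SE 0.18). Hjurp, with the smallest p, stood at 74.7, 78.0 and 67.7 CPM against 116, 108, 97.4 and 68.2 (-0.41, SE 0.24, edgeR adjusted p 1.00), and WT replicate 4 lay among the knockout-labelled libraries. Ckap2l stood at 53.6, 57.2 and 40.2 CPM against 70.4, 66.2, 61.5 and 46.3 (-0.28, SE 0.23), with overlap.

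Outside GM-marked cells the estimate was below 0 for 39 of 51 members, with a median of -0.17 against 0.03 for all genes. None was called by edgeR (0 members at an unadjusted p below 0.05, 0 by DESeq2), and neither was any of 14313 genes (0%). Kif23, Hjurp and Smc4 were lower in every knockout-labelled library, as were 1.07% of all genes. Kif23 stood at 45.7, 64.3 and 56.1 CPM against 73.2, 82.3, 69.8 and 70.9 (-0.42, SE 0.22, edgeR adjusted p 1.00). Hjurp stood at 67.4, 65.9 and 74.4 CPM against 101, 111, 81.9 and 78.5 (-0.43, SE 0.23), and Cenpf at 110, 78.3 and 84.7 CPM against 120, 137, 118 and 93.0 (-0.36, SE 0.25). Cells that were not GM-marked had median depths of 7572, 5275 and 8651 UMIs under the knockout label and 7895, 8252, 9853 and 7599 under WT. In the window of 8000 to 16000 UMIs the members' median outside GM-marked cells was 0.08, with 36 of 51 above 0.

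Among the 4 states with at least 20 cells in every library, lymphoid-gated cells gave the widest gap between the labels, and they were examined separately after the data had been seen. Their G2/M share was 0.611%, 0.589% and 0.575% in the knockout-labelled libraries and 0.758%, 0.749%, 0.738% and 0.674% in the WT-labelled ones, without overlap (0.592 ± 0.018% against 0.729 ± 0.038%). The difference was -0.148 points within list A and -0.099 points within list B. The share of these cells at 1% or more after thinning was 16.8 ± 0.73% against 23.2 ± 3.37%, again without overlap. Their median depth was 9142, 7708 and 10029 UMIs under the knockout label and 11298, 12224, 12213 and 8732 under WT. In the window of 8000 to 16000 UMIs the share was 0.591%, 0.579% and 0.414% against 0.607%, 0.611%, 0.422% and 0.693%, where the groups overlapped and the difference was -0.055 points. Lymphoid-gated cells made up 3.6%, 5.1% and 7.63% of the cells under the knockout label and 18%, 16%, 17.5% and 15.9% under WT. They numbered 111, 88 and 523 under the knockout label and 224, 188, 263 and 1413 under WT. The values of knockout replicates 1 and 2 therefore rest on few cells, and the SD between libraries does not measure that uncertainty.

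**Figure D5:**
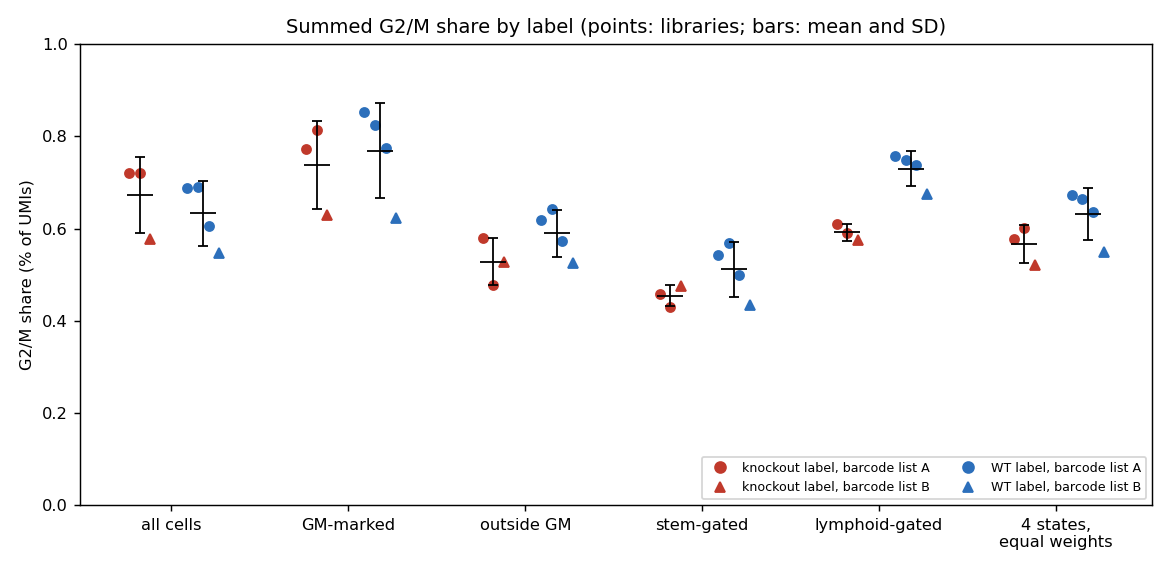
Summed G2/M share of UMIs (percent) by library and label in all kept cells, in GM-marked cells, outside them, in stem-gated and lymphoid-gated cells and with 4 states weighted alike (points are libraries, bars the mean and SD). The labels overlap except in lymphoid-gated cells, where the knockout-labelled libraries lie from 0.575% to 0.611% and the WT-labelled ones from 0.674% to 0.758%.

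Of the 51 members, 50 had an estimate below 0 in lymphoid-gated cells, with a median of -0.29 against 0.01 for all genes. edgeR called 0 of them and 0% of 11208 genes (0 members at an unadjusted p below 0.05, 0 called by DESeq2). With the barcode list as a covariate edgeR called 0 of the members and 0.0892% of all genes at the adjusted threshold. In that fit 21 members had an unadjusted p below 0.05. The share of all genes below that unadjusted p is not given here, so the count has no background to be read against. Kif23, Hmmr, Cenpf, Hjurp, Bub1, Smc4 and Ndc80 were lower in every knockout-labelled library, which are 7 members, as were 0.999% of all genes. Kif23 stood at 72.0, 83.8 and 66.7 CPM against 104, 106, 110 and 101 (-0.51, SE 0.23, edgeR adjusted p 1.00). Hmmr stood at 46.0, 54.6 and 48.5 CPM against 78.7, 70.6, 64.2 and 60.3 (-0.46, SE 0.23), and Cenpf at 146, 107 and 99.2 CPM against 168, 175, 186 and 147 (-0.53, SE 0.26). For Cenpf knockout replicate 1 and WT replicate 4 nearly met. Of the other mitotic genes Gas2l3, which links actin and microtubules, stood at 27.6, 20.6 and 20.4 CPM against 39.5, 45.8, 45.7 and 30.6 (-0.82, SE 0.27, edgeR adjusted p 1.00), and 53 of 54 had an estimate below 0.

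In stem-gated cells, also examined after the data had been seen, the share was 0.459%, 0.429% and 0.475% under the knockout label and 0.543%, 0.569%, 0.499% and 0.434% under WT, with overlap. Its sign differed between the barcode lists, at -0.093 points in list A and 0.041 points in list B. None of the 51 members was called by edgeR (0% of 13388 genes, 0 members at an unadjusted p below 0.05, 0 by DESeq2), and 39 had an estimate below 0. Hjurp was the 1 member lower in every knockout-labelled library, against 0.71% of all genes, at 67.8, 68.4 and 72.3 CPM against 98.4, 111, 80.2 and 76.2 (-0.39, SE 0.24, edgeR adjusted p 1.00). Kif23 stood at 40.5, 57.8 and 54.0 CPM against 56.9, 73.4, 56.8 and 63.1 (-0.30, SE 0.23), and Cenpf at 86.7, 70.8 and 77.0 CPM against 97.1, 122, 96.3 and 70.3 (-0.30, SE 0.26). Both overlapped.

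Whether the step from other cells to GM-marked cells differed between the labels was tested as an interaction, which was added after the data had been seen. Of the 51 members 48 had a larger step under the knockout label, with a median difference of 0.16 on the log2 scale. At the adjusted threshold edgeR called 0 of them (0 by DESeq2), and 0.00678% of 14748 genes were called higher. At an unadjusted p below 0.05 there were 3 members. The shares of all genes below that unadjusted p and with a larger step are not given here, so these counts have no background to be read against. Without knockout replicate 3, 10 members were called higher, as were 3.23% of 14765 genes, and in the 5 libraries of list A alone 10 were called higher, as were 3.47% of 14296 genes. Without knockout replicate 2 the estimates split into 27 above and 24 below 0, and in the window of 8000 to 16000 UMIs 45 of 51 lay below 0. The 3 members with the smallest p were Ncapd2, a condensin subunit (0.27, SE 0.11, edgeR adjusted p 0.965), Rangap1, the GTPase activator of nuclear transport (0.28, SE 0.12), and Kif20b, a kinesin of late cytokinesis (0.29, SE 0.12). In the order knockout replicates 1 to 3 and WT replicates 1 to 4, Ncapd2 stood at 51.1, 70.6, 82.8, 61.3, 72.5, 60.4 and 70.9 CPM in GM-marked cells and at 34.2, 41.2, 56.5, 48.4, 61.4, 44.2 and 53.2 outside. Ncapd2 was higher in GM-marked cells in every library.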

How the data were processed

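Single-cell RNA libraries were made from sorted bone marrow LSK cells with a 10X Genomics 3′ kit (v2, per the labels' protocols), although the barcodes use 2 lists of sequences. For each of 7 libraries the authors deposited a matrix of UMI counts (genes by barcodes). Per the file headers, Cell Ranger 7.0.0 wrote it. The submitters' processing notes name mm10 and Seurat 4.4.0, and which filters were applied before deposit is not given in the sources used here. Counts were used as deposited.

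Barcodes with at least 1000 UMIs, at least 500 genes and at most 10% mitochondrial UMIs were kept. Scrublet called 0 to 5 barcodes per library, which cannot be taken as working, so doublets remain. An alternative removed the top doublet scores at 0.8% per 1000 barcodes. A gate was passed when its marker genes summed to a set number of UMIs per 10000 (10 for granule, 5 for monocyte, 2 for lymphoid, 4 for stem and 2 for Flt3). All gates but the lymphoid and Flt3 ones also asked for at least 2 of their genes. Cells that passed more than 1 gate took the first in the order T and NK, secondary granule, MHC II, basophil and mast, megakaryocyte, erythroid, granule, monocyte, lymphoid, stem and Flt3. The G2/M share is the members' UMIs as a percent of all UMIs of a set of cells, and no test was made of it.

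For tests, counts were summed per library and set of cells and fitted with the two-sided quasi-likelihood test of edgeR 4.0.16 (R 4.3.3) over all genes (TMM, filterByExpr, robust fit, Benjamini-Hochberg threshold 0.05), with the library as a block where states were compared. Some of the fits were run on simulated counts with large changes and no difference between the barcode lists. Small differences between labels were not simulated. All 51 members passed the expression filter in each fit on all kept cells. Total UMIs per library ranged from 14970791 to 89747946 over all barcodes and from 12681440 to 89268502 over kept cells. CPM values use TMM factors. Promoters were scanned in Python 3.11.15. Alternatives were DESeq2 1.42.0, the omission of each library, a replicate block, all genes unfiltered, stricter cells, other gates and sums, and, added after the data had been seen, the barcode lists, the window of 8000 to 16000 UMIs and the lymphoid, stem and interaction fits. The members, lists and gates were chosen with earlier results of these data known. Values in every library are given for the member of each role with the most UMIs summed over all kept cells. They are also given for the 3 members with the smallest p in a fit, and pathway genes are named by the smallest p as well.

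The replicate numbers of the labels were checked as pairs. Over 10572 genes the deviations of same-numbered libraries correlated at 0.665, 0.868 and -0.493. For knockout replicates 1 and 2 this was their highest correlation with any WT-labelled library. Knockout replicate 3 correlated at 0.919 with WT replicate 4, the other list B library. The replicate block set it beside WT replicate 3 instead. The numbers therefore do not pair all the libraries.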

Additional observations from a re-analysis of the deposited data

Results flagged for a closer look

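In 0 of 21 sets of 4 WT-labelled shares or levels did the highest or lowest library lie far enough from the rest to pass Dixon's critical value.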

How the results depend on the processing

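Most values kept their direction and their side of the threshold. The number of members called between labels stayed at 0 in all, GM-marked, outside, lymphoid-gated and stem-gated cells under every alternative run. The fit with a replicate block was included, although the numbers do not pair all the libraries. In that fit 11 members had an unadjusted p below 0.05 in all cells, and the share of all genes below it is not given here. For the interaction the number called was 0 to 10. The 49 members called between GM-marked and other cells, all higher, were 48 or 49 with any library left out and 50 with DESeq2. In cells of 8000 to 16000 UMIs they were 8, of which 1 was higher and 7 lower. In that window the difference of the G2/M share between GM-marked and other cells was -0.013 points, and the label difference was -0.0045 points in all cells, 0.023 outside GM-marked cells, 0.016 with equal state weights, -0.055 in lymphoid-gated cells, 0.051 in stem-gated cells, and stem minus Flt3 was 0.052. Log2 values that changed sign there were -0.17 for Cenpw in GM-marked cells, 0.10 for Cenpf and 0.077 for Bub1b outside them, -0.049 for Cdca3 between GM-marked and other cells, 0.23 for Cenpf and 0.046 for Melk in stem-gated cells, and, for the interaction, -0.085 for Rangap1, -0.037 for Kif20a, -0.24 for Ncapg and -0.27 for Ccna2. Without ribosomal protein and mitochondrial genes in the denominator GM-marked cells exceeded the others by 0.279 points, and in list B alone by 0.100. In list B alone the label difference was 0.0070 in GM-marked cells, 0.0014 outside them, -0.099 in lymphoid-gated and 0.041 in stem-gated cells, and stem minus Flt3 was 0.019. Among cells that passed at most 1 gate it was -0.162 with equal state weights and -0.519 in lymphoid-gated cells. With any 1 library left out, the label difference ran from -0.080 to 0.023 in GM-marked cells (0.023 without knockout replicate 3), and stem minus Flt3 from -0.030 to 0.0070 (0.0070 without knockout replicate 2). The label difference in the percent of thinned cells at 1% or more, 1.46, was -0.290 without Hmgb2 in the sum, 7.03 with the limit at 0.5% and -0.860 with it at 2%. Between stem-gated and Flt3-gated cells, stem minus Flt3 was 0.140 with gate thresholds halved and -0.137 with them doubled. The 3 members called there became 17 (all higher) and 43 (all lower), 0 with DESeq2 and 1 to 4 with any library left out (1 without knockout replicate 1, WT replicate 3 or WT replicate 4). With halved thresholds Hmgb2 (0.31), Cks1b (0.23) and Kif15 (0.74) changed sign, and with doubled ones Tubb4b (-0.20). The causes were not tested. Values from list B alone rest on a single library for each label.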
